A study of Mus musculus with 7 samples.

Results

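Nfkbia and Tnfaip3, the genes of 2 inhibitors of NF-kB signalling, were examined for BRG1 occupancy in mouse helper T cells. Each gene was taken as a fixed interval of the mm9 genome, 60 kb on chromosome 12 for Nfkbia (chr12:56560001-56620000) and 150 kb on chromosome 10 for Tnfaip3 (chr10:18650001-18800000). The intervals were set by position and not by a cut on their reads, though with earlier results of these data known. They hold 210 of 2638946 bins of 1 kb, 1050 of 13194689 windows of 200 bp and 10 of the 28063 regions called in at least 1 BRG1 library.

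BRG1 hydrolyses ATP to move nucleosomes as part of SWI/SNF complexes, and its position was read by chromatin immunoprecipitation and sequencing. The design has 7 libraries with 1 library per group. Naive CD4+ CD62L+ cells were purified (95%) from Balb/C mice 4 to 6 weeks old and were used without culture. Resting Th1 cells were naive cells cultured on plates coated with anti-CD3 (1 μg/ml) and anti-CD28 (2 μg/ml) with IL-12 (1 ng/ml) and anti-IL-4 (10 μg/ml), and then with IL-2 (100 U/ml). Resting Th2 cells had the same coating and IL-2, with IL-4 (10 ng/ml) and anti-IFNγ (10 μg/ml) as the polarising agents. Stimulated Th1 and Th2 cells additionally received PMA (50 ng/ml) and ionomycin (500 ng/ml) for 1.5 h, which together act as a chemical substitute for antigen receptor signalling. Stimulated Th17 cells were grown with soluble anti-CD3 (4 μg/ml) and anti-CD28 (1 μg/ml), both blocking antibodies (10 μg/ml each), IL-6 (100 ng/ml), IL-1β (10 ng/ml) and TGF-β (1 ng/ml), then IL-23 (10 ng/ml), and were stimulated in the same way. No resting Th17 library was analysed here, so stimulation cannot be told apart from subset in the Th17 library. The input library was sheared DNA without immunoprecipitation. The labelled cell types were not checked against marker loci, because no mm9 gene models were used here.

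NF-kB transcription factors are held in the cytoplasm of unstimulated cells by inhibitor proteins, of which IκBα, the product of Nfkbia, is the best known. Signals from the T cell receptor lead the IκB kinase complex to mark IκBα for destruction, and NF-kB then enters the nucleus. Among the genes it switches on are Nfkbia itself, whose new protein takes NF-kB back out of the nucleus, and Tnfaip3, which encodes A20, a ubiquitin-editing enzyme that shuts down the signalling upstream of the kinase. Both are standard examples of negative feedback in this pathway.

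The promoters are shown first, because both genes are known as direct NF-kB targets. Each sequence is the 250 bases before the RefSeq start site, 5′ to 3′ on the minus strand, from RefSeq on build GRCm38.p6. Both genes were found in that table. The Nfkbia promoter is at chr12:55492648-55492897 and the Tnfaip3 promoter at chr10:19015411-19015660. These positions are on another build than the reads and cannot be laid over them. Capitals mark matches to GGANTTTCC, a form of the NF-kB site, and to TGANTCA, the site of the stimulus-induced factor AP-1, searched on both strands.
Nfkbia: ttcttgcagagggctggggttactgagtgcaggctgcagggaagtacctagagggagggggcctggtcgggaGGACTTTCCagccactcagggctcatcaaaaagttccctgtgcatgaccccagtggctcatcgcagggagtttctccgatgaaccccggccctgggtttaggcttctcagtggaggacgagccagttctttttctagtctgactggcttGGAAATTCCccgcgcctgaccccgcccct
Tnfaip3: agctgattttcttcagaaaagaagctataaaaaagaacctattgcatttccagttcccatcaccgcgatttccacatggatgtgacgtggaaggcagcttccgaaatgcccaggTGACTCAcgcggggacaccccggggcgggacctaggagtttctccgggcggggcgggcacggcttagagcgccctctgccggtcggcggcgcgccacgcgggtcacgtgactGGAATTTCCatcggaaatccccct

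The Nfkbia promoter held 2 matches to GGANTTTCC, GGACTTTCC from -178 to -170 and GGAAATTCC from -29 to -21 bases relative to the start. The Tnfaip3 promoter held 1, GGAATTTCC from -24 to -16, and also TGACTCA from -136 to -130. Both promoters thus had an NF-kB-type match within 30 bases of the start. Of 32851 mouse promoters of the same length, 1.07% held GGANTTTCC and 6.75% held TGANTCA. A pair of GGANTTTCC matches was present in 0.00304% of the promoters, which is 1 promoter, that of Nfkbia. The looser pattern GGGNNNNNCC, which can overlap the shorter one, was present in both promoters but also in 45.8% of all promoters. A further Tnfaip3 start in the table (chr10:19011964-19012213) held only GGGNNNNNCC. Of a list of 26 genes of the pathway, 19 were in the table (Nfkbiz, Nfkb1, Relb, Ikbkb, Itch, Rnf11 and Otud7b were not). GGANTTTCC was present in 4 of the 19, namely Nfkbia, Tnfaip3, the deubiquitinase gene Cyld and the NF-kB subunit gene Nfkb2. TGANTCA was also present in 4, namely Tnfaip3, Nfkb2, the inhibitor gene Nfkbie and Ikbkg, which encodes a subunit of the IκB kinase complex. The letters were chosen after the promoters had been read, and a match is not a measured binding site. BRG1 values at the other genes of the list are not given, because no mm9 annotation was used here.

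Distinct reads, counted once per start and strand, numbered from 1340208 in resting Th2 to 7892944 in stimulated Th17, with 3531867 in the input. Values are given as RPM, reads per 1000000 distinct reads of the library. Reads that repeated a position made up 28.5% to 41.4% of the 3 unstimulated BRG1 libraries and 10.2% to 11.8% of the 3 stimulated ones. Depth and repetition therefore moved with stimulation, and their part in the differences below was not tested. Ratios carry a 95% exact interval that covers counting error only. With 1 library per group, every ratio compares libraries and no p-value is given.

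Over the whole Nfkbia interval, BRG1 reads were higher in the stimulated libraries. They came to 84.5 RPM in naive, 85.2 and 86.6 in resting Th1 and Th2, and 153, 136 and 181 in stimulated Th1, Th2 and Th17, beside 60.3 in the input. The 3 unstimulated libraries lay within 1.03-fold of each other and below every stimulated one. In order from the highest, Th17 was 1.19-fold (1.08 to 1.31) above stimulated Th1, Th1 was 1.13-fold (1.002 to 1.26) above stimulated Th2, and Th2 was 1.57-fold (1.28 to 1.93) above resting Th2. The neighbours further down, resting Th2 over resting Th1 (1.02, 0.792 to 1.30) and resting Th1 over naive (1.01, 0.807 to 1.26), did not differ beyond counting error. Relative to input, the 6 libraries in the same order as above stood at 1.40, 1.41, 1.43, 2.53, 2.25 and 3.002. The median 60 kb stretch of the genome stood at 0.974, 0.884, 0.781, 0.591, 0.614 and 0.559 in these libraries.

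Over the whole Tnfaip3 interval the libraries were closer together. Reads came to 136 RPM in naive, 157 and 197 in resting Th1 and Th2, and 214, 208 and 191 in stimulated Th1, Th2 and Th17, beside 97.4 in the input. Stimulated Th1, stimulated Th2, resting Th2 and Th17 followed each other in that order without a step between neighbours beyond counting error. Across these steps, Th17 stood at 0.894 (0.821 to 0.974) of stimulated Th1 and 0.920 (0.846 to 1.0) of stimulated Th2. Th17 was 1.22-fold (1.07 to 1.39) above resting Th1, and resting Th1 was 1.16-fold (0.979 to 1.37) above naive. Naive was 1.39-fold (1.19 to 1.64) above input. The ratios to input were 1.39, 1.61, 2.02, 2.20, 2.13 and 1.96, beside 0.993, 0.908, 0.799, 0.594, 0.620 and 0.579 for the median 150 kb stretch of the genome.

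**Figure D1:**
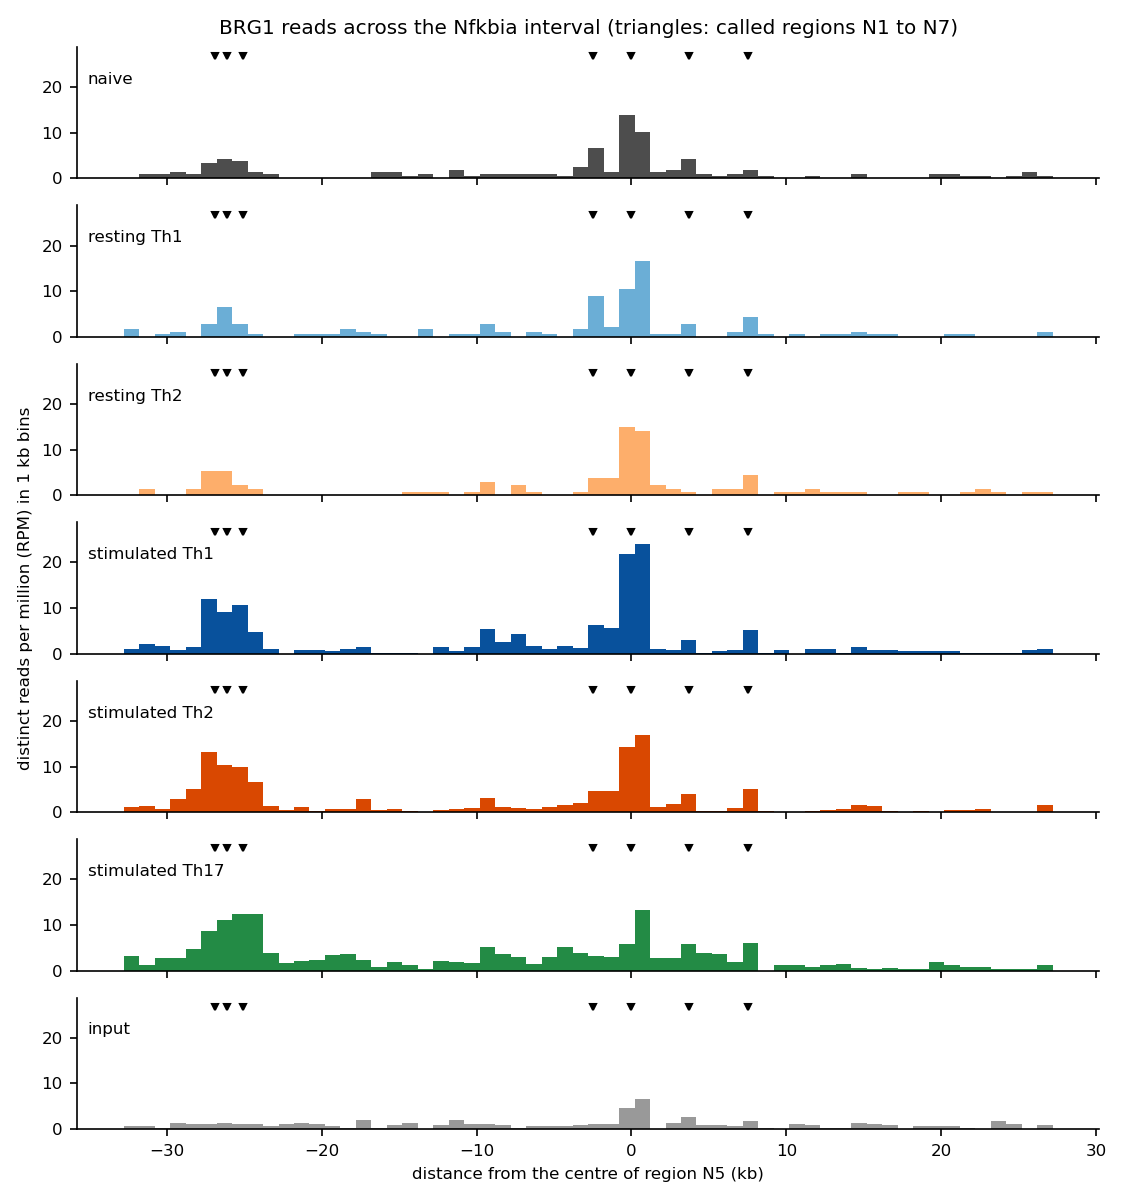
RPM of distinct reads in 1 kb bins across the Nfkbia interval, 1 panel per library on a common vertical axis, against the distance in kb from the centre of region N5; triangles mark the 7 called regions. The highest bin of each BRG1 library lies in a central pair of bins that is also raised in the input. A group of bins to the left of the pair, where N1 to N3 lie 25.1 to 26.9 kb from N5, is higher in the 3 stimulated libraries. In Th17 the highest bin of the pair held 13.2 RPM, beside 12.4 RPM in the highest bins of that group.

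Within the Nfkbia interval, reads gathered in a central block and in a distal block to one side of it. The central block is the pair of bins at chr12:56592001-56594000, called the main block below. The distal block is the 4 kb at chr12:56565001-56569000. Both were outlined after the profiles had been seen. Whether either overlies a start site, an exon or an intron was not analysed here. In the order of genes in RefSeq, Nfkbia lies between the proteasome subunit gene Psma6 and Aldoart2.

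The main block held 24.1 RPM in naive, 27.1 and 29.1 in resting Th1 and Th2, and 46.0, 31.2 and 19.0 in stimulated Th1, Th2 and Th17, beside 11.0 in the input. Stimulated Th1 was highest, 1.47-fold (1.17 to 1.86) above stimulated Th2. Stimulated Th2, both resting libraries, naive and Th17 then followed without a step between neighbours beyond counting error. Stimulated Th1 was 1.69-fold (1.23 to 2.38) above resting Th1, but 1.12 relative to the median region of the genome, that is, divided by the median ratio of all called regions tested in that pair. Stimulated Th2 stood at 1.07-fold (0.746 to 1.57) of resting Th2, or 0.853 relative to the median. Resting Th1 and Th2 stood at 1.12 (0.742 to 1.70) and 1.21 (0.772 to 1.87) of naive, or 0.713 and 0.732 relative to the median. Th17 was the lowest BRG1 library, at 0.414 (0.331 to 0.517) of stimulated Th1 and 0.609 (0.479 to 0.775) of stimulated Th2. Relative to the median these were 0.714 and 0.967. Th17 was still 1.72-fold (1.20 to 2.51) above the input.

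The distal block separated stimulated from unstimulated libraries. It held 13.0 RPM in naive, 12.7 and 14.2 in resting Th1 and Th2, and 36.8, 39.9 and 44.6 in stimulated Th1, Th2 and Th17, beside 4.81 in the input. The lowest stimulated library was 2.59-fold (1.60 to 4.43) above the highest unstimulated one. Stimulated over resting was 2.89-fold (1.85 to 4.70) in Th1 and 2.81-fold (1.75 to 4.79) in Th2. Among the stimulated libraries the ratios were 1.21 (0.997 to 1.48) for Th17 over Th1, 1.12 (0.928 to 1.35) for Th17 over Th2 and 0.922 (0.733 to 1.16) for Th1 over Th2. The unstimulated libraries were also above the input here, by 2.71-fold (1.42 to 5.29) in naive, 2.64-fold (1.35 to 5.27) in resting Th1 and 2.95-fold (1.45 to 6.03) in resting Th2.

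The remaining 54 kb of the interval held 47.3 RPM in naive, 45.4 and 43.3 in resting Th1 and Th2, and 69.9, 64.5 and 117 in stimulated Th1, Th2 and Th17, beside 44.5 in the input. Summed over these 54 kb, the unstimulated libraries were thus at the level of the input. Stimulated Th1, Th2 and Th17 were 1.57-fold (1.29 to 1.93), 1.45-fold (1.19 to 1.78) and 2.64-fold (2.23 to 3.15) above the input. The sum does not describe each bin. The bin at chr12:56590001 was 5.97-fold (1.87 to 24.9) above the input in naive and 7.81-fold (2.52 to 32.1) in resting Th1. In resting Th2 it held 3.73 RPM beside 1.13 in the input. Th17 was 1.68-fold (1.47 to 1.93) above stimulated Th1 and 1.82-fold (1.59 to 2.09) above stimulated Th2. In Th17, 1 of 60 bins was empty and the median bin held 2.09 RPM. In the other BRG1 libraries 3 to 23 bins were empty and the median bin held 0.553 to 1.02 RPM. The 3 highest bins held 21.0% of the interval's reads in Th17 and 32.7% to 42.2% in the other BRG1 libraries. The Th17 library is also the deepest, and the part of depth in the number of empty bins was not tested.

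The number of distal reads for each main read needs no scaling between libraries. In the Nfkbia interval it was 0.540 (0.325 to 0.879) in naive, 0.469 (0.273 to 0.785) in resting Th1 and 0.487 (0.266 to 0.864) in resting Th2. After stimulation Th1 stood at 0.800 (0.638 to 1.002), Th2 at 1.28 (1.01 to 1.62) and Th17 at 2.35 (1.93 to 2.86). The input stood at 0.436 (0.231 to 0.789). The intervals of the unstimulated libraries and of stimulated Th1 overlapped that of the input. Stimulated Th2 and Th17 had more reads in the 4 kb distal block than in the 2 kb main block. Per kb, the distal block held 9.97 RPM and the main block 15.6 in stimulated Th2, and 11.2 and 9.50 in Th17. Stimulated Th2 was 2.62-fold (1.40 to 5.03) above resting Th2 in this measure, and stimulated Th1 1.70-fold (0.965 to 3.07) above resting Th1. Th17 was 2.93-fold (2.17 to 3.97) above stimulated Th1 and 1.84-fold (1.35 to 2.50) above stimulated Th2.

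**Figure D2:**
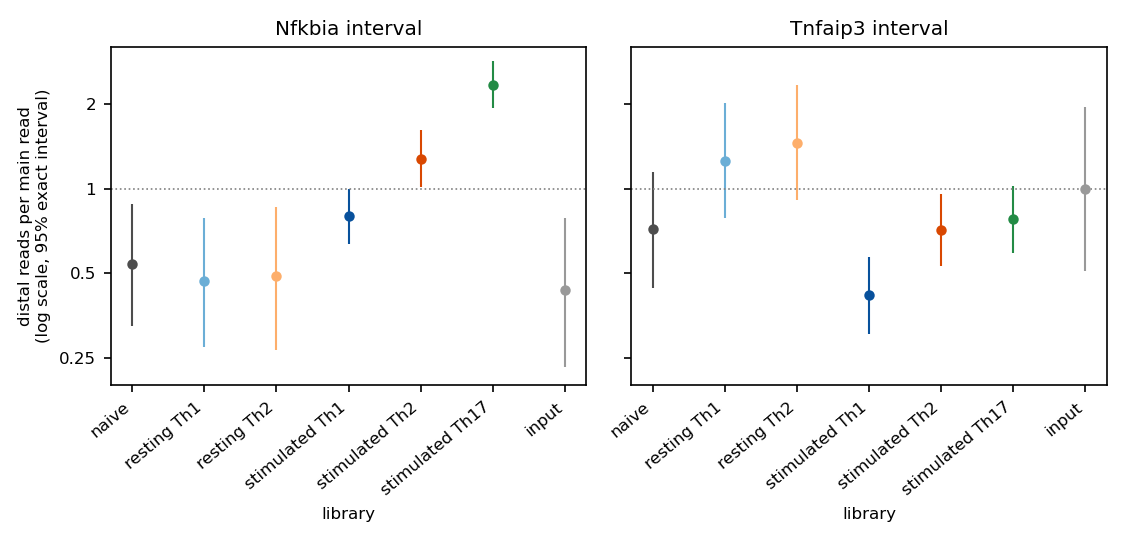
Number of reads in the distal block for each read in the main block (vertical log axis, points with 95% exact intervals) in each of the 7 libraries, for the Nfkbia interval on the left and the Tnfaip3 interval on the right; the dotted line marks 1. In the Nfkbia interval the 3 unstimulated libraries lie between 0.469 and 0.540 and Th17 at 2.35, and in the Tnfaip3 interval both resting libraries lie above 1 and stimulated Th1 at 0.418.

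Called regions resolved these blocks into 200 bp windows. A window was called where its reads passed a Poisson tail of 1e-05 over the local input with all BRG1 libraries thinned to equal depth, and neighbouring windows were joined. In the Nfkbia interval 2, 1, 2, 4, 4 and 5 of 300 windows were called, in the order naive, resting Th1 and Th2, and stimulated Th1, Th2 and Th17. In the Tnfaip3 interval 1, 1, 2, 3, 3 and 1 of 750 were called. Of all windows of the genome, 0.0256%, 0.0599%, 0.0735%, 0.105%, 0.0957% and 0.0508% were called in these libraries. The joined regions are N1 to N7 for Nfkbia and T1 to T3 for Tnfaip3, numbered along the chromosome.

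N5 (chr12:56592601-56593000, inside the main block) was called in 4 libraries. It held 10.6 RPM in naive, 8.30 and 12.7 in resting Th1 and Th2, and 17.4, 11.0 and 3.80 in stimulated Th1, Th2 and Th17, beside 3.40 in the input. Th17 was at the level of the input (ratio 1.12, 0.556 to 2.40) and the other 5 were above it. The input itself was 22.4-fold over its genome mean per base at N5. N4 (chr12:56590201-56590400) was called in naive and resting Th1, with 11 and 9 reads, and had 1 read in resting Th2, 11 to 14 in the stimulated libraries and 1 in the input. In RPM this was 5.31, 4.98 and 0.746 in the unstimulated libraries and 2.81, 2.82 and 1.77 in the stimulated ones. N6 (chr12:56596401-56596600) was called only in Th17 and had 18 reads there, 2 in stimulated Th2, 1 in resting Th2, 2 in the input and 0 in naive, resting Th1 and stimulated Th1. N7 (chr12:56600201-56600400) had 3 to 6 reads in the unstimulated libraries, 10, 11 and 27 in stimulated Th1, Th2 and Th17, and 4 in the input. In RPM this was 1.45, 3.32 and 4.48 in the unstimulated libraries and 2.55, 2.58 and 3.42 in the stimulated ones. Stimulated over resting at N7 was 0.769 (0.253 to 2.575) in Th1 and 0.5765 (0.195 to 1.90) in Th2.

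The distal block contains N1 to N3, which lie 25.1 to 26.9 kb from N5. N1 (chr12:56565801-56566000) had 4, 2 and 1 reads in naive, resting Th1 and resting Th2 and 24, 26 and 43 in stimulated Th1, Th2 and Th17, with 1 in the input, and was called in all 3 stimulated libraries. N3 (chr12:56567401-56568000), called in stimulated Th2 and Th17, had 7, 3 and 2 reads in the unstimulated libraries and 35, 37 and 87 in the stimulated ones, with 3 in the input. N2 (chr12:56566601-56566800), called in stimulated Th2, had 3, 1 and 3 reads, then 4, 11 and 20, with 2 in the input. In RPM this was 1.45, 0.553 and 2.24, then 1.02, 2.58 and 2.53. In N1 and N3 no unstimulated library reached the RPM of a stimulated one.

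**Figure D3:**
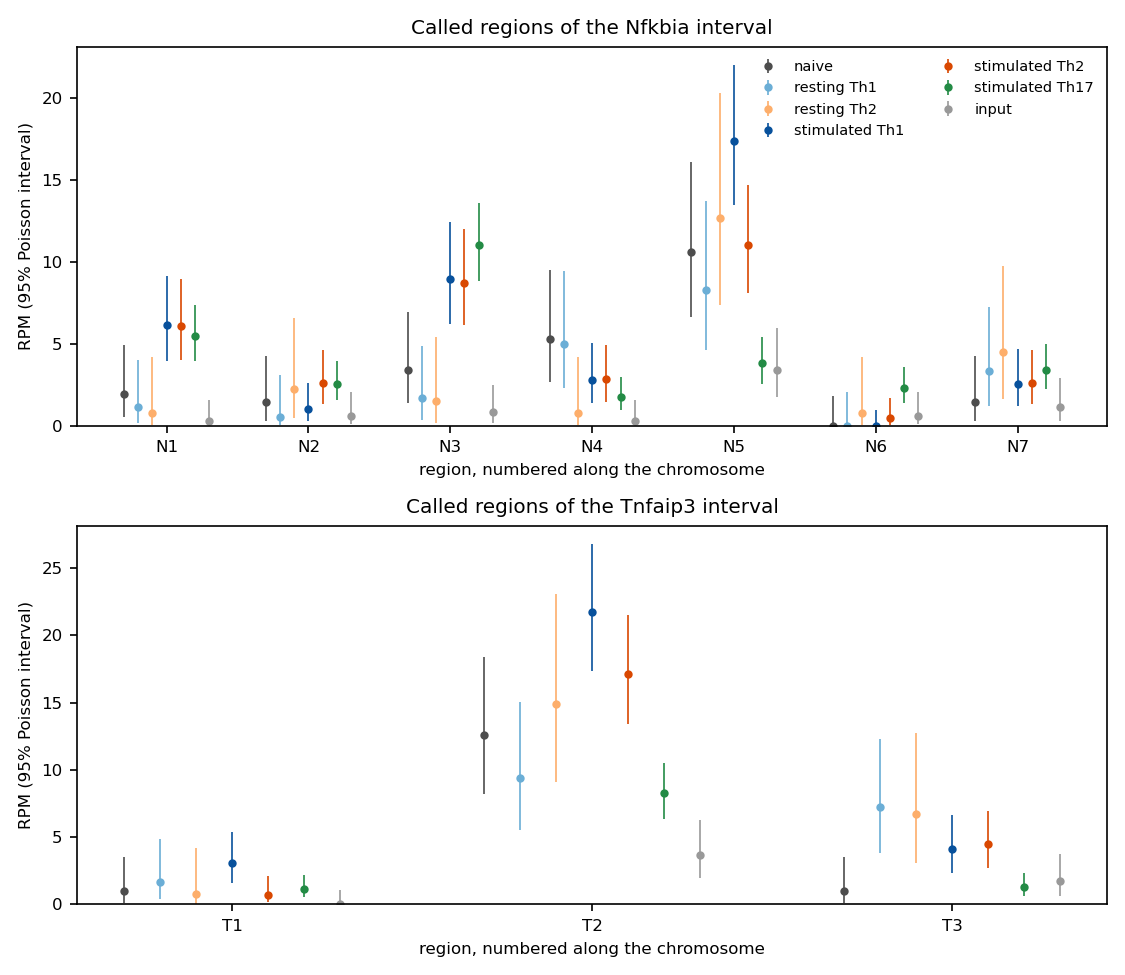
RPM with 95% Poisson intervals of the 7 libraries in the called regions of the Nfkbia interval (top) and the Tnfaip3 interval (bottom), regions numbered along the chromosome. N1 and N3 have all 3 stimulated libraries above the 3 unstimulated ones, N5 and T2 have stimulated Th1 highest and Th17 lowest of the BRG1 libraries, and T3 has both resting libraries highest.

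The Tnfaip3 interval had its high point at T2 (chr10:18735001-18735400). T2 held 12.6 RPM in naive, 9.40 and 14.9 in resting Th1 and Th2, and 21.7, 17.1 and 8.24 in stimulated Th1, Th2 and Th17, beside 3.68 in the input. As at N5, stimulated Th1 was highest and Th17 lowest of the BRG1 libraries. All 6 were above the input, by 2.24-fold (1.22 to 4.42) in Th17 and 5.90-fold (3.27 to 11.5) in stimulated Th1. T2 was called in 5 libraries, all but resting Th1. The input was 24.3-fold over its own genome mean per base there. T1 (chr10:18734401-18734600) lies 700 bp from T2 and had 2, 3 and 1 reads in the unstimulated libraries and 12, 3 and 9 in stimulated Th1, Th2 and Th17, with 0 in the input, which allows up to 0.849 RPM. In RPM, T1 stood at 0.965, 1.66 and 0.746 in the unstimulated libraries and 3.06, 0.704 and 1.14 in the stimulated ones.

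The main block around T1 and T2 (chr10:18734001-18736000) held 22.2 RPM in naive, 19.4 and 24.6 in resting Th1 and Th2, and 36.0, 27.0 and 16.0 in stimulated Th1, Th2 and Th17, beside 5.66 in the input. The order resembled that of the Nfkbia main block, with stimulated Th1 1.33-fold (1.04 to 1.72) above stimulated Th2 and the further neighbours within counting error. Th17 stood at 0.4435 (0.346 to 0.568) of stimulated Th1 and 0.592 (0.456 to 0.7685) of stimulated Th2. Relative to the median region of each pair these were 0.766 and 0.939. Stimulated over resting was 1.86-fold (1.28 to 2.77) in Th1 and 1.10-fold (0.739 to 1.67) in Th2, which were 1.23 and 0.871 relative to the median region of each pair. Resting Th1 and Th2 stood at 0.872 (0.545 to 1.38) and 1.11 (0.687 to 1.77) of naive, or 0.553 and 0.673 relative to the median. In RefSeq order Tnfaip3 lies between the apoptosis effector gene Perp and Olig3, a transcription factor gene.

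A distal block lay at chr10:18781001-18784000, with the centre of its called region 47.3 kb from that of T2. It held 15.9 RPM in naive, 24.3 and 35.8 in resting Th1 and Th2, and 15.1, 19.2 and 12.4 in stimulated Th1, Th2 and Th17, beside 5.66 in the input. The resting libraries had the highest values here, but no step between neighbours in the order of the 6 BRG1 libraries was beyond counting error, and resting Th1 stood at 1.27 (0.856 to 1.85) of stimulated Th2. Stimulated over resting was 0.619 (0.412 to 0.936) in Th1 and 0.537 (0.372 to 0.784) in Th2. Resting Th2 was 2.25-fold (1.41 to 3.62) and resting Th1 1.53-fold (0.951 to 2.48) above naive, which were 1.37 and 0.970 relative to the median region of each pair. In both resting libraries the highest 1 kb bin of the interval was in this block, at chr10:18782001-18783000 with 13.3 and 20.2 RPM, whereas in the other 4 BRG1 libraries it was the bin of T2 at chr10:18735001-18736000 with 10.0 to 25.0 RPM.

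With a distal block of 3 kb and a main block of 2 kb, the distal reads for each main read in the Tnfaip3 interval were 0.717 (0.444 to 1.15) in naive, 1.26 (0.788 to 2.02) in resting Th1 and 1.45 (0.915 to 2.34) in resting Th2. After stimulation Th1 stood at 0.418 (0.303 to 0.571), Th2 at 0.713 (0.530 to 0.955) and Th17 at 0.778 (0.591 to 1.02). The input stood at 1.00 (0.511 to 1.96), and the interval of every BRG1 library overlapped that of the input. Stimulated over resting in this measure was 0.333 (0.188 to 0.591) in Th1 and 0.490 (0.279 to 0.857) in Th2. Against their resting counterparts, stimulated Th1 and Th2 thus had fewer distal reads for each main read at Tnfaip3 and more at Nfkbia, where the interval of Th1 included 1.

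T3 (chr10:18782401-18782600) is the called region of the Tnfaip3 distal block. It had 2 reads in naive, 13 and 9 in resting Th1 and Th2, 16, 19 and 10 in stimulated Th1, Th2 and Th17, and 6 in the input. In RPM this was 0.965, then 7.19 and 6.715, then 4.08, 4.46 and 1.27, beside 1.70 in the input. Its reads were mostly on the minus strand, with 9 of 13 and 8 of 9 in resting Th1 and Th2, 13 of 16, 14 of 19 and 6 of 10 in stimulated Th1, Th2 and Th17, and 6 of 6 in the input. The part of this imbalance in the calls was not tested.

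**Figure D4:**
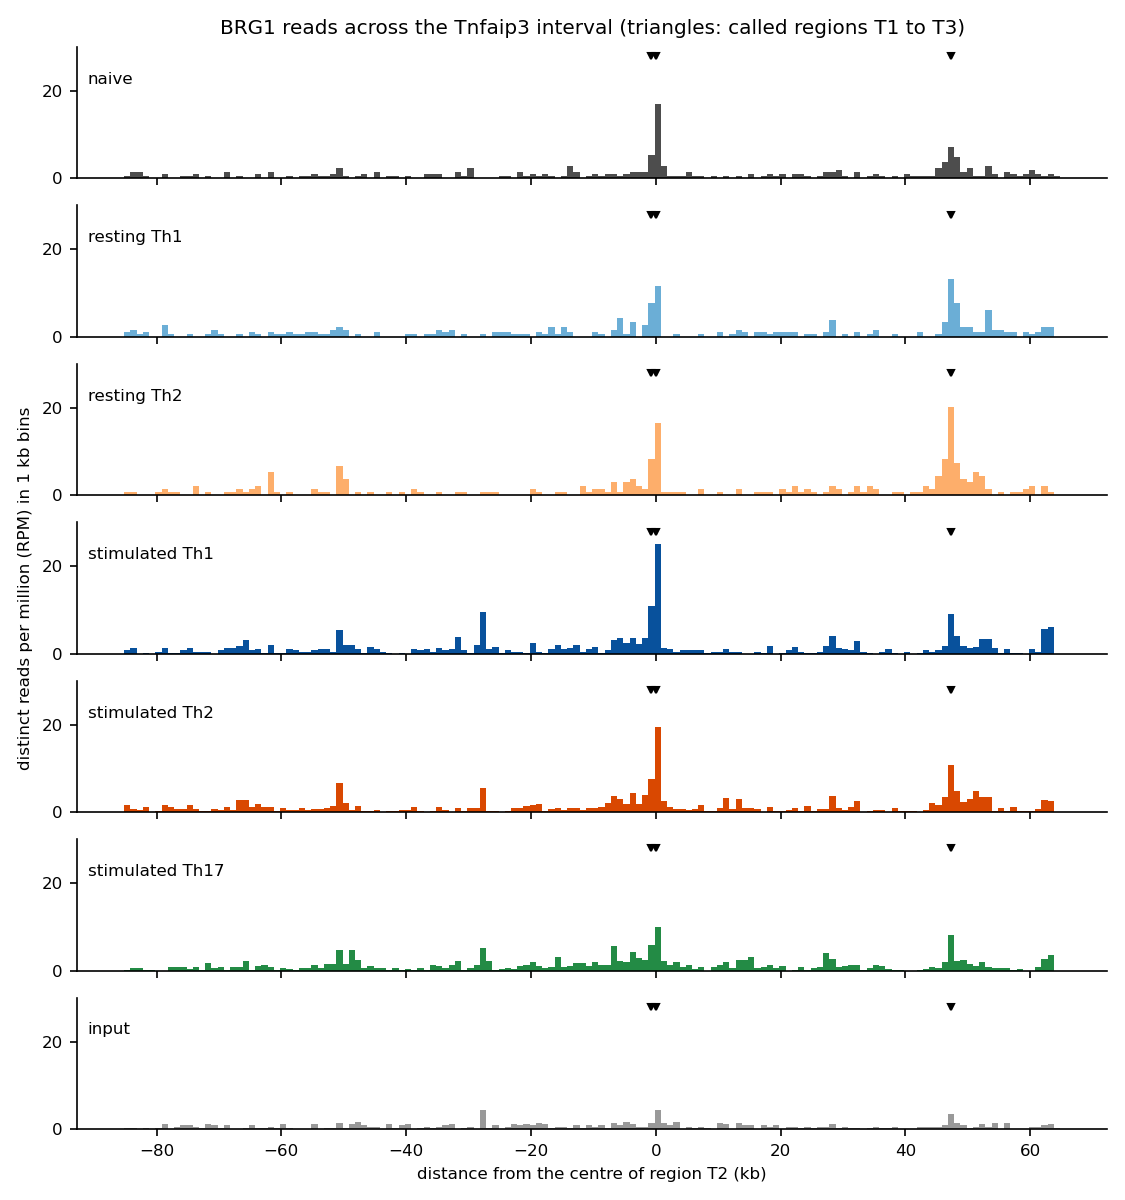
RPM of distinct reads in 1 kb bins across the Tnfaip3 interval, 1 panel per library on a common vertical axis, against the distance in kb from the centre of region T2; triangles mark the 3 called regions. The bin of T2 is highest in naive and in the 3 stimulated libraries, and the bin of T3, 47.3 kb to its right, is highest in both resting libraries.

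Pairs of libraries were then compared region by region. A region was called higher or lower in a pair when it had at least 10 reads in the pair, differed at least 3-fold in RPM and had an interval that left out 1. The median region of the genome was itself not at a ratio of 1. Its log2 ratio was 0.66 for resting Th1 over naive, 0.72 for resting Th2 over naive, -0.17 for resting Th1 over resting Th2, 0.60 and 0.33 for stimulated over resting Th1 and Th2, 0.12 for stimulated Th1 over stimulated Th2, and -0.79 and -0.67 for Th17 over stimulated Th1 and Th2. Ratios relative to that median are given beside most of the others. A region is in the list because of the libraries in which it was called, which favours a higher value in those libraries: N1 was called in the 3 stimulated libraries, N3 in stimulated Th2 and Th17, N6 in Th17 alone, T1 in stimulated Th1 alone, T3 in both resting libraries and stimulated Th2, N4 in naive and resting Th1, and N5 in 4 libraries without Th17. Called differences in a direction that this selection favours are descriptions. T3 in Th17 over stimulated Th1 and N3 in stimulated over resting Th1 are exceptions, each called as a region in neither library of the pair. N3 was still listed through the other stimulated libraries. The blocks were outlined after the profiles had been seen, so their ratios are descriptions as well. The whole-interval values above do not depend on the selection of regions or blocks.

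Stimulated Th1 over resting Th1 gave 2 higher and 0 lower of the 5 Nfkbia regions with enough reads, and none of the 3 Tnfaip3 regions either way. Of all 20064 regions tested in this pair, 23.9% were higher and 4.58% lower. The higher regions, both listed only through stimulated libraries, were N1 at 5.54-fold (1.38 to 48.4) and N3 at 5.38-fold (1.70 to 27.4), which were 3.67 and 3.56 relative to the median region. N5 was 2.09-fold (1.18 to 3.94) and T2 2.31-fold (1.36 to 4.14) higher, both under the 3-fold limit, and 1.39 and 1.53 relative to the median. The sum of all regions was 1.95-fold (1.35 to 2.89) for Nfkbia and 1.58-fold (1.06 to 2.40) for Tnfaip3, and relative to the median 1.29 and 1.05. The distal block of Nfkbia was 1.91 relative to the median and that of Tnfaip3 0.410.

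Stimulated Th2 over resting Th2 again gave N1 (8.18-fold, 1.34 to 335) and N3 (5.82-fold, 1.50 to 49.8) as the higher regions, listed through stimulated libraries that include this one, 2 of 6 with enough reads for Nfkbia, with 0 lower. No region of 2 was called for Tnfaip3. Of all 20581 regions tested, 13.8% were higher and 5.05% lower. N5 stood at 0.869 (0.490 to 1.61) and T2 at 1.15 (0.692 to 1.99). The sums were 1.48 (0.9997 to 2.26) for Nfkbia and 0.996 (0.654 to 1.56) for Tnfaip3, or 1.18 and 0.792 relative to the median. The distal block of Nfkbia was 2.24 relative to the median region and that of Tnfaip3 0.427. N1 and N3 rest on 1 to 3 reads in each resting library, so their intervals reach far up.

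In 1 kb bins, stimulated Th1 over resting Th1 gave 4 higher and 0 lower of 13 Nfkbia bins and 4 higher and 0 lower of 25 Tnfaip3 bins, beside 16.7% higher and 1.97% lower of all bins tested. Stimulated Th2 over resting Th2 gave 2 higher and 0 lower of 16 and 2 higher and 1 lower of 33, beside 8.29% and 2.13%. The bins higher in both pairs were those at chr12:56567001 and chr12:56568001 in the Nfkbia distal block and the one at chr10:18707001 in the Tnfaip3 interval. Resting Th1 was below the input in 2 of its 4 higher Nfkbia bins and 3 of its 4 Tnfaip3 bins, and resting Th2 in 0 of 2 and 2 of 2. Resting Th1 had 0 reads in 1 of these Nfkbia bins and 3 of these Tnfaip3 bins, and resting Th2 in 0 and 1. Against a floor of 3 reads these bins were at least 2.615-fold (Nfkbia, Th1), 1.54- to 2.31-fold (Tnfaip3, Th1) and 1.47-fold (Tnfaip3, Th2) higher. All of these are under the 3-fold limit. The bin at chr10:18707001 had 0, 1 and 1 reads in naive, resting Th1 and resting Th2 and 37, 24 and 40 in stimulated Th1, Th2 and Th17, but 15 in the input. The resting libraries were thus below the input there, and stimulated Th2 and Th17 stood at 1.33 (0.668 to 2.72) and 1.19 (0.645 to 2.32) of the input and stimulated Th1 at 2.22 (1.19 to 4.36).

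**Figure D5:**
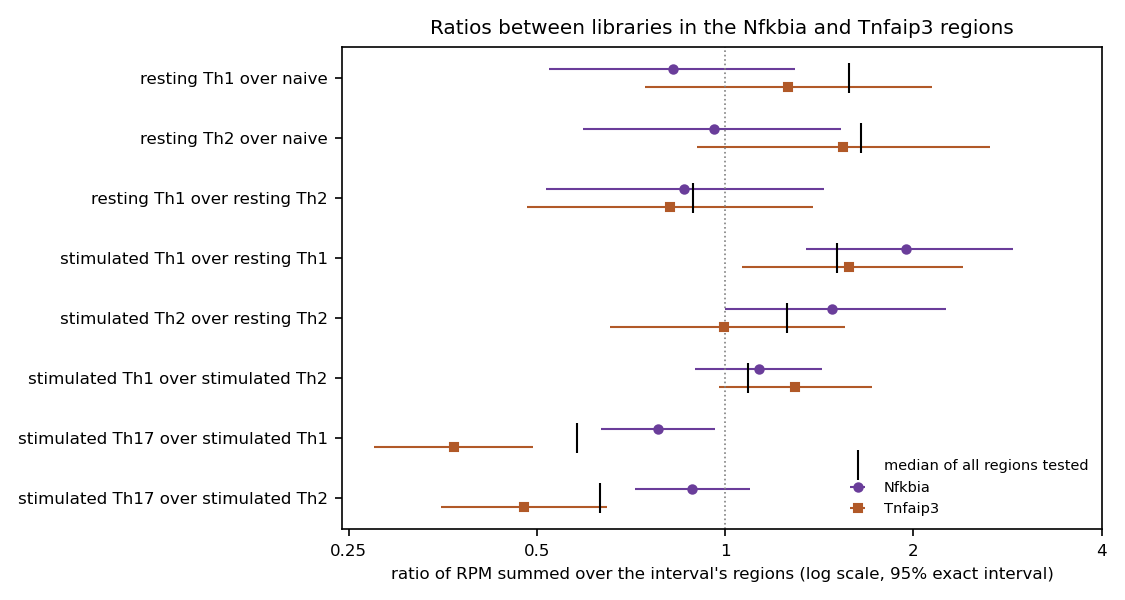
Ratio of RPM summed over the called regions of each interval (horizontal log axis, points with 95% exact intervals) for the 8 pairs of libraries, with the median ratio of all regions tested in that pair as a vertical bar. For stimulated over resting cells the Nfkbia points lie at 1.95 and 1.48 beside medians of 1.51 and 1.26, and for Th17 over stimulated Th1 the Tnfaip3 point lies at 0.369, below the median of 0.579, and the Nfkbia point at 0.780, above it.

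Differentiation without stimulation showed little at Nfkbia. Resting Th1 over naive called 0 of 3 Nfkbia regions and 1 of 2 Tnfaip3 regions, beside 15.2% higher and 0.885% lower of all regions. Resting Th2 over naive called 1 lower of 2 Nfkbia regions and 1 higher of 2 Tnfaip3 regions, beside 19.7% higher and 1.16% lower. The Tnfaip3 region was T3 in both, at 7.45-fold (1.69 to 68.0) and 6.96-fold (1.44 to 66.2) over 2 naive reads, and the naive library is shared by the comparisons. The Nfkbia region was N4, 7.12-fold (1.03 to 306) lower in resting Th2 on 1 read. The sums were 0.825 (0.522 to 1.29) and 0.958 (0.592 to 1.53) for Nfkbia and 1.26 (0.745 to 2.14) and 1.55 (0.900 to 2.65) for Tnfaip3, which relative to the median region were 0.524 and 0.582 for Nfkbia and 0.800 and 0.939 for Tnfaip3. Resting Th1 over resting Th2 called none of 3 Nfkbia and none of 2 Tnfaip3 regions, beside 2.07% higher and 4.75% lower, with sums of 0.861 (0.518 to 1.44) and 0.815 (0.482 to 1.38).

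The stimulated Th1 and Th2 libraries differed in the balance of the blocks. The distal reads for each main read in Th1 were 0.626 (0.451 to 0.869) of those in Th2 at Nfkbia and 0.587 (0.379 to 0.908) at Tnfaip3. Both intervals left out 1, but they cover counting error only, in blocks outlined after these profiles had been seen. Stimulated Th1 over stimulated Th2 called 0 of 6 Nfkbia regions and 1 of 3 Tnfaip3 regions, T1 at 4.35-fold (1.17 to 24.0) higher in the library that alone placed it in the list, beside 2.67% higher and 3.59% lower of all regions. The sums were 1.13 (0.897 to 1.43) for Nfkbia and 1.29 (0.976 to 1.72) for Tnfaip3. N5 was 1.57-fold (1.07 to 2.33) higher in Th1, while N1 and N3 stood at 1.00 (0.552 to 1.82) and 1.03 (0.629 to 1.68).

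Stimulated Th17 over stimulated Th1 called 1 higher and 1 lower of 7 Nfkbia regions and 0 higher and 1 lower of 3 Tnfaip3 regions, beside 3.42% higher and 16.6% lower of all regions. N5 was 4.57-fold (2.93 to 7.27) lower in Th17 and remained 0.378 relative to the median region. T3 was 3.22-fold (1.38 to 7.95) lower and T2 2.64-fold (1.89 to 3.70) lower, and relative to the median 0.536 and 0.656. N6, listed through Th17 alone, was higher, with 18 reads against 0, at least 2.98-fold against a floor of 3 reads per library (lower end of the exact interval 2.18). The summed regions stood at 0.780 (0.634 to 0.963) for Nfkbia and 0.369 (0.275 to 0.494) for Tnfaip3. Relative to the median the Nfkbia sum was 1.35, on the other side of 1, and the Tnfaip3 sum 0.637. On the same scale the distal block was 2.10 and the main block 0.714 for Nfkbia, and 1.42 and 0.766 for Tnfaip3.

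Stimulated Th17 over stimulated Th2, which shares the Th17 library, called 1 higher and 0 lower of 7 Nfkbia regions and 0 higher and 1 lower of 3 Tnfaip3 regions, beside 3.51% higher and 17.4% lower. N6, again by its selection, was 4.86-fold (1.16 to 43.2) higher and T3 3.52-fold (1.56 to 8.47) lower. N5 was 2.90-fold (1.80 to 4.75) lower, under the limit. The sums were 0.884 (0.717 to 1.09) for Nfkbia and 0.477 (0.352 to 0.647) for Tnfaip3, which were 1.40 and 0.758 relative to the median. The Nfkbia blocks, distal and main, were 1.78 and 0.967 on that scale, and those of Tnfaip3 1.02 and 0.939.

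The 1 kb bins placed the Th17 excess between and beside the Nfkbia blocks. Th17 over stimulated Th1 gave 12 higher and 1 lower of 48 Nfkbia bins and 4 higher and 1 lower of 75 Tnfaip3 bins, beside 6.96% higher and 3.14% lower of all bins tested. Th17 over stimulated Th2 gave 12 higher and 0 lower of 47 and 7 higher and 3 lower of 78, beside 7.11% and 4.41%. Stimulated Th1 was itself below the input in RPM in 8 of the 12 higher Nfkbia bins and 4 of the 4 Tnfaip3 bins, and stimulated Th2 in 6 of the 12 and 4 of the 7. Stimulated Th1 had 0 reads in 2 of the 12 and 3 of the 4, and stimulated Th2 in 2 of the 12 and 1 of the 7. Against the floor of 3 reads these bins were at least 1.65- to 4.14-fold higher over Th1 and 1.8- to 2.7-fold over Th2. The Nfkbia bin at chr12:56597001 had 30 reads in Th17, 1 in each of stimulated Th1 and Th2, and 3 in the input. The bin at chr12:56573001 had 27, 2, 3 and 2. None of the 12 bins higher over stimulated Th1 lay in the main or the distal block, and the lower one, at chr12:56592001, was in the main block. Outside the blocks of Tnfaip3, in contrast, Th17 stood at 0.9997 (0.908 to 1.10) of stimulated Th1 and 1.01 (0.917 to 1.11) of stimulated Th2, which is 1.73 and 1.60 relative to the median region. The rest of the Nfkbia interval was 2.90 and 2.89 on that scale.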

How the data were processed

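For each library the authors deposited the positions of its aligned reads, each line giving chromosome, start, end and strand, with no score or count of their own. Reads were 34 bases long. Positions are on mm9, per the submitters' processing notes. The aligner is not given in the sources used here. Chromatin was crosslinked, cut with MNase and sonicated, and libraries had 18 PCR cycles and fragments of 250 to 300 bases, per the labels' protocols.

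From the deposited positions, repeats of a start and strand were counted once, reads on chromosome Y were dropped and 5′ ends were moved 75 bp. Reads were counted in 200 bp windows and 1 kb bins and scaled to RPM. For calling, BRG1 libraries were thinned to 1340208 reads. A window passed at a Poisson tail of 1e-05, against whichever was highest of the mean over the genome and the scaled input in the surrounding 1, 5 and 10 kb, and windows were joined over gaps of 1 window. Regions of the 6 BRG1 libraries were then merged and counted with all distinct reads. Ratios have exact conditional 95% intervals and Poisson intervals are exact. Because PCR copies are not independent molecules, intervals and floors cover counting error only. The floor for a count of 0 is 3 counts. No test between conditions was run, since each group has 1 library.

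The regions named are the 6 highest by mean RPM in each interval and every region called in a pair, which came to all 10. The members, lists and motifs were chosen with earlier results of these data known, and the blocks, the bin comparisons and 2 of their alternatives, 2-fold and all reads kept, after the profiles were seen. The calling was tested on simulated data. Python 3.11.15, numpy 2.4.6, scipy 1.17.1 and pandas 2.3.3 were used.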

Additional observations from a re-analysis of the deposited data

Results flagged for a closer look

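A pair of Nfkbia regions had stimulated-over-resting ratios on opposite sides of 1 in the Th1 and the Th2 libraries, and this difference was not tested. Region N5 stood at 2.09 (1.18 to 3.94) in Th1 and at 0.869 (0.490 to 1.61) in Th2, on 68 against 15 and 47 against 17 reads. Region N4 stood at 0.564 (0.213 to 1.54) in Th1 and at 3.77 (0.558 to 161) in Th2, on 11 against 9 and 12 against 1 reads. Of these 4 intervals, that of N5 in Th1 alone left out 1.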

How the results depend on the processing

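No region ratio past the 3-fold limit changed direction. Sums, all under that limit, crossed 1 in these cases. At Nfkbia, resting Th1 over naive came to 1.18 with all reads kept and 1.01 over the whole interval. Resting Th2 over naive came to 1.32 with all reads kept, 1.11 scaled by 10 kb bins and 1.03 over the whole interval. Th17 over stimulated Th1 crossed 1 as given below, and Th17 over stimulated Th2 did so there and at equal depth (1.06). At Tnfaip3, resting Th1 and Th2 over naive came to 0.800 and 0.939 relative to the median, and stimulated over resting Th2, at 0.996, came to between 1.01 and 1.33 under 5 alternatives. Relative to the median, further ratios whose own interval left out 1 also crossed it. For the Tnfaip3 distal block this was Th17 over stimulated Th2 (1.02). For the whole Tnfaip3 interval these were resting Th2 over naive (0.882), stimulated over resting Th1 (0.901) and Th17 over stimulated Th1 (1.54). Outside the blocks of Tnfaip3 these were resting Th2 over naive (0.850) and stimulated over resting Th1 (0.9505) and Th2 (0.941). Moving 5′ ends by 100 bp and scaling by 10 kb bins without regions changed none of 28 summed ratios each by more than its interval, and leaving windows unjoined none of 12 counts. No paired analysis was possible because each group has 1 library.

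Division by the median ratio of regions moved the Nfkbia sums to 0.582 for resting Th2 over naive, 1.29 for stimulated over resting Th1, and 1.35 and 1.40 for Th17 over stimulated Th1 and Th2. It moved the Tnfaip3 sums to 1.05 for stimulated over resting Th1, and 0.637 and 0.758 for Th17 over stimulated Th1 and Th2. At equal depth, Th17 over stimulated Th1 came to 1.02 for Nfkbia and Th17 over stimulated Th2 to 0.688 for Tnfaip3. In place of the regions, the whole interval gave 1.19 and 1.33 for Th17 over stimulated Th1 and Th2 at Nfkbia and 0.894 and 0.920 at Tnfaip3. Over input it gave 1.40, 1.41, 1.43, 2.53 and 2.25 at Nfkbia and 1.39, 1.61, 2.02, 2.20 and 2.13 at Tnfaip3 in naive, resting Th1 and Th2, and stimulated Th1 and Th2, since it holds sequence outside the regions.

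With all distinct reads, Nfkbia regions called were 8 in each of stimulated Th1 and Th2 and 15 in Th17, and Tnfaip3 regions 2 in resting Th1, 7 in each of stimulated Th1 and Th2 and 16 in Th17. With all reads kept, Nfkbia regions were 2 in resting Th1, 5 in resting Th2 and 6 in stimulated Th1, and Tnfaip3 regions 4 and 9 in resting Th1 and Th2 and 4, 7 and 5 in stimulated Th1, Th2 and Th17. At a Poisson tail of 1e-07, Nfkbia regions were 1 each in naive, resting Th2 and stimulated Th1 and 2 in stimulated Th2, and Tnfaip3 regions 0 in resting Th1, 1 in resting Th2 and 1 in stimulated Th2. With 20 reads in the pair, 0 regions remained for resting Th2 over naive at Nfkbia and 1 for Th17 over stimulated Th1. At Tnfaip3, 0 remained for resting Th1 over naive, resting Th2 over naive and stimulated Th1 over Th2. At 2-fold, Th17 over stimulated Th2 called 2 Nfkbia regions, and Tnfaip3 regions came to 1 for stimulated over resting Th1, 3 for Th17 over stimulated Th1 and 2 for Th17 over stimulated Th2. With all reads kept, bins higher after stimulation came to 5 for Nfkbia in Th2, and to 9 in Th1 and 4 in Th2 for Tnfaip3. The cause of these shifts was not tested.

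For the blocks, keeping all reads, chosen after seeing the data, moved the Nfkbia distal block in Th17 over stimulated Th2 to 1.39 and no other block ratio out of its interval. The ratio of N6 in Th17 over stimulated Th1 has 0 reads in its second library and was not repeated. Depth limits the resting libraries most, where single regions hold 0 or 1 read.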
